A study of Mus musculus with 6 samples.

Results

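Translation initiation factors were followed in GATA1s megakaryocyte progenitors of the adult bone marrow and the fetal liver. The members are the genes whose platform symbol starts with Eif and a digit from 1 to 6, without the eIF2 kinases (Eif2ak) and the eIF2 gamma subunit genes (Eif2s3). For each gene the probe set with the highest mean log2 signal over the 6 arrays was used, and probe sets that carry several gene symbols were left out. This gave 41 of the 18193 genes named on the array, of which 40 passed the filter on low signals. Eif1, Eif2s1, Eif3g and Eif4g1 were not among the 41, so the initiation complexes were not covered in full. Eif3j1 and Eif3j2 were left out because their probe sets carry both symbols. The choice used symbols and mean signal over all arrays, not the difference between tissues.

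Bone marrow came from C57BL/6 mice aged 12 to 18 weeks and fetal liver from C57BL/6 embryos at E13.5, with 3 arrays from each tissue. All samples carried the GATA1s genotype, in which an amino-terminally shortened GATA1 transcription factor is made, so no full-length GATA1 control enters any comparison here. Cells had been flow-sorted as lineage-negative and Sca-1-negative, with c-kit, CD150 and CD41 on the surface. The labels number the samples as biological replicates without saying how many animals each holds or how the allele was made, and p-values therefore reflect the spread of these samples alone, which may be technical. Of 12 megakaryocyte genes found on the array, 2 were higher and 1 lower in fetal liver, and their summed signal was 33946 to 37502 in bone marrow and 28877 to 44474 in fetal liver. Transcripts of other blood cells differed between the tissues: all 14 granulocyte and monocyte markers tested were lower in fetal liver, with a summed signal of 58702 to 70382 in bone marrow and 7572 to 9535 in fetal liver. Fetal liver was higher for 9 of 11 mitosis genes, with sums of 31692 to 35103 against 44460 to 48920. Lymphoid (5 of 7 tested lower), mast cell and basophil (5 of 5) and macrophage markers (5 of 5) fell as well. Among these, Cd79a, Rag1, Cd3e, Fcer1a, Mcpt8, C1qa, C1qc, Vcam1 and Cd5l were below the level of bacterial control probe sets in fetal liver alone. The macrophage gene Marco was below it in bone marrow alone, and Pax5 and Cma1 were below it in both. Of the hepatoblast genes, Alb and Krt8 were below it in bone marrow alone and Hnf4a in fetal liver alone. Of 7 erythroid markers 3 were lower and 1 higher (sums of 8925 to 17349 against 7241 to 8544), and of 5 endothelial markers 3 were higher (2881 to 3329 against 3863 to 5088). Of 4 hepatoblast markers 2 were lower and 1 higher (1892 to 2106 against 650.0 to 968). Counts are of tested genes, while sums take in every gene of a list found on the array, 8 for each of these last 3 lists. The part of these differences in the values below was not tested. In bulk RNA a smaller number of cells of one type and less RNA per cell cannot be told apart.

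Translation of most messenger RNAs starts when eIF4E binds the 5′ cap, the scaffold eIF4G joins it to the helicase eIF4A, and eIF3 bridges this complex to the small ribosomal subunit. That subunit already carries the initiator tRNA, brought by eIF2 bound to GTP, and scans to the start codon with eIF1 and eIF1A, after which eIF5 and eIF5B allow the large subunit to join. eIF2B recharges eIF2 with GTP, and stress kinases block that step by phosphorylating eIF2, which makes eIF2B a control point for the rate of protein synthesis. Megakaryocyte progenitors divide and then grow into large cells with a protein-rich cytoplasm.

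Promoter sequences were available for 32 of the 41 genes, in 44 windows of RefSeq's mouse build GRCm38.p6. The bases before the annotated start are shown here for the eIF2B subunits, because these genes rose together, and for Eif5a2, which had the largest rise. The sequences run 5′ to 3′ along the gene and end at the base just before the start. The 4 eIF2B genes with an entry have the following last 100 bases.
Eif2b1, chr5:124579132-124579231, minus strand: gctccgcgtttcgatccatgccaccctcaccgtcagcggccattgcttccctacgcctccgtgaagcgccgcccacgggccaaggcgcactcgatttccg
Eif2b2, chr12:85219381-85219480, plus strand: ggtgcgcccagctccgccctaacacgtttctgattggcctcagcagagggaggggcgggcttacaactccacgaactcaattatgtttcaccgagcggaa
Eif2b4, chr5:31193140-31193239, minus strand: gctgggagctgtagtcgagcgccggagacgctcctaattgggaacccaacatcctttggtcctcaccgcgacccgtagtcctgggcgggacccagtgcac
Eif2b5, chr16:20498717-20498816, plus strand: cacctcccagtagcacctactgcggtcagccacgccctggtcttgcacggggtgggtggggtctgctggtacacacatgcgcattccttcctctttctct

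The 250 bases before each start were searched on both strands for 6 exact motifs: the E-box CACGTG bound by MYC and related factors, the ETS core CCGGAAG, the YY1 core AAGATGG, the palindromic NRF1 motif, the GATA core AGATAA and the cyclic AMP response element TGACGTCA. No motif contains another of the set. The E-box was in 10 of 44 member windows (22.7%) and in 6.0% of all 32851 windows, and the ETS core was in 11 windows (25%) against 6.9%. The GATA core was in 1 window (2.27%) against 10%, the YY1 core in 2 (4.55%) against 4.5%, the NRF1 motif in 1 (2.27%) against 0.8%, and the cyclic AMP element in none against 1.5%. Windows of one gene with several starts can overlap, and a match describes the letters, not a bound site. Member windows were also richer in G and C, with a median of 63.4% against 52.4% for all windows. None of the 6 motifs was in the windows of the 4 eIF2B genes. The Eif5a2 window, below, has 2 E-boxes and 2 ETS cores in capitals, the E-boxes starting 142 and 117 bases before the start.
Eif5a2, chr3:28781027-28781276, plus strand: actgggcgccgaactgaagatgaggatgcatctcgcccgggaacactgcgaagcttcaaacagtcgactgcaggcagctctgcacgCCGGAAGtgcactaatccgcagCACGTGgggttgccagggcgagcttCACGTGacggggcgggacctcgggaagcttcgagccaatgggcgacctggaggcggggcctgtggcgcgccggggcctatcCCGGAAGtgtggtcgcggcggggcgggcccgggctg

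The other E-boxes lay in the windows of Eif1b, Eif3f, Eif3k, Eif4a1, Eif4e, Eif4h and Eif5a. Stretches of 40 bases around them are shown for the cap-binding protein gene Eif4e, which has 2, and for the helicase gene Eif4a1 and the RNA-binding cofactor gene Eif4h, because the 3 proteins work together at the cap; capitals mark the E-box.
Eif4e, distal, chr3:138527023-138527062, plus strand: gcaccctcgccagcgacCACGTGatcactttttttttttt
Eif4e, proximal, chr3:138527187-138527226, plus strand: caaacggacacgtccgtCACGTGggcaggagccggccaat
Eif4a1, chr11:69672590-69672629, minus strand: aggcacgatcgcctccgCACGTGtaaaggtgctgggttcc
Eif4h, chr5:134639483-134639522, minus strand: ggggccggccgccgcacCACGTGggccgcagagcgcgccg
Of the 8 genes with an E-box, Eif1b and Eif5a2 were called higher in fetal liver, and of the other 24 genes with a window 8 were. Of all tested members 30.0% were called higher, and of all genes 17.8%. Those 24 include Eif4a3, which was not tested. The median log2 fold change of the tested genes was 0.17 with and 0.22 without an E-box.

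Most initiation factors had small differences between the tissues, mainly toward fetal liver, while Eif4e3 was far lower there. Of 40 tested members 12 (30.0%) were called higher and 1 (2.50%) lower, by limma with a Benjamini-Hochberg adjusted p under 0.05. Over all 11645 genes tested 36.1% were called, 17.8% higher and 18.3% lower. Log2 fold changes are given as fetal liver less bone marrow. Their median was 0.18 over the members and 0.04 over all genes, and 35 of 40 members had a positive value against 54.3% of all genes. All 3 fetal liver arrays lay above all 3 bone marrow arrays for 25 members (62.5%), against 26.7% of genes. The members were brighter than most genes: 38 of 40 had a mean signal over 1000, against 4984 of 11645 genes. The part of this brightness in the shares was not tested. The 12 rises were modest, from 0.26 to 0.91 on the log2 scale with a median of 0.41, and the 27 members not called lay between -0.04 and 0.32. Without bone marrow replicate 3 the count of rises was 4 of 40, namely Eif5b, Eif2b1, Eif2b3 and Eif5a2, against 10.9% of all genes. Without bone marrow replicate 1 it was 7 of 40, against 13.4% of all genes.

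**Figure D1:**
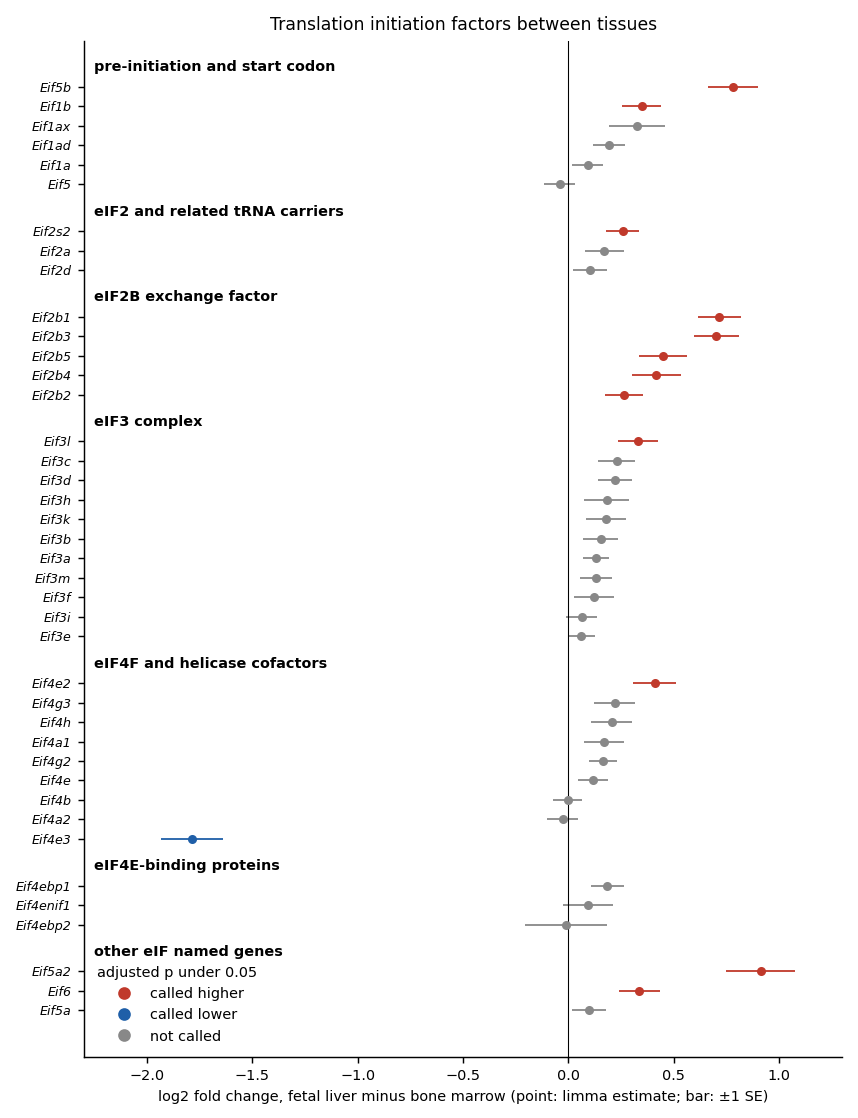
Log2 fold change (positive where fetal liver is higher, horizontal axis) of the 40 tested initiation factors, grouped by role, with points for the limma estimate and bars for ±1 SE. Eif4e3 stands alone at -1.79, while the 5 eIF2B genes, Eif5b and Eif5a2 lie to the right of most other members.

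All 5 subunit genes of eIF2B, the exchange factor that recharges eIF2, were higher in fetal liver. The share called higher was 17.8% over all genes. Eif2b1, the alpha subunit that senses phosphorylated eIF2 in the regulatory part of the complex, had signals of 781, 816 and 770 in bone marrow replicates 1 to 3 and 1205, 1351 and 1337 in fetal liver. The arrays of the tissues did not overlap, and the rise was 1.64-fold (log2 fold change 0.72 ± 0.10 SE, adjusted p = 6.73e-04). Eif2b3, the gamma subunit of the catalytic part, measured 1236, 1069 and 1306 in bone marrow and 1875, 1920 and 2059 in fetal liver. It rose 1.63-fold (0.70 ± 0.11, adjusted p = 9.10e-04), again with no overlap.

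Eif2b5, which encodes the catalytic epsilon subunit, had 1212, 1539 and 1363 in bone marrow and 1769, 2036 and 1792 in fetal liver. Its log2 fold change was 0.45 ± 0.11 (adjusted p = 0.0145). The delta subunit gene Eif2b4 had 853, 1062 and 913 against 1186, 1229 and 1350 (0.42 ± 0.12, adjusted p = 0.0221). The beta subunit gene Eif2b2 moved least, from 1788, 1684 and 1715 to 2103, 2218 and 1919 (0.26 ± 0.09, adjusted p = 0.0485). For each of the 5 genes every fetal liver array was above every bone marrow array, which held for 26.7% of all genes. The subunits differed in how firmly the call held: Eif2b2 lost it when its 3 probe sets were averaged (0.07, adjusted p = 0.602), under quantile normalization (adjusted p = 0.0640), with no filter, without the variance trend, with a replicate block (adjusted p = 0.0736) and when any 1 array was left out. Eif2b5 lost it when its 2 probe sets were averaged (0.03, adjusted p = 0.932), the second having -0.39, and without bone marrow replicate 3. Eif2b4 lost it without bone marrow replicate 1 or 3 or fetal liver replicate 3. Eif2b1, Eif2b3 and Eif2b4 have 1 probe set each.

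Among the start codon factors, Eif5b rose. It encodes the GTPase that joins the ribosomal subunits. Its signals were 1454, 1719 and 1684 in bone marrow and 2472, 3209 and 2682 in fetal liver, a rise of 1.72-fold (0.78 ± 0.12, adjusted p = 9.52e-04). The highest bone marrow array was well below the lowest fetal liver array. Both other probe sets of Eif5b rose too, with log2 fold changes of 0.89 and 0.47 (adjusted p = 1.63e-04 and 0.0351 over all probe sets). Eif1b, a close relative of the start codon factor eIF1, had 4524, 4481 and 4209 against 4957, 6275 and 5651 (0.35 ± 0.09, adjusted p = 0.0179), and fetal liver replicate 2 was the highest array. Its call was lost without the variance trend and without bone marrow replicate 3 or fetal liver replicate 3.

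The other 4 genes of this group did not pass. Eif1ad, an eIF1A-domain gene, had 0.19 ± 0.08 (adjusted p = 0.0787), with separated arrays. Eif1ax had 0.32 ± 0.13 (adjusted p = 0.0822), with signals of 4288 to 5053 in bone marrow and 5327 to 7439 in fetal liver. It was called with a replicate block (adjusted p = 0.0391), without fetal liver replicate 1 (0.41, adjusted p = 0.0410) and under both median centrings, and averaging its probe sets gave 0.02 (adjusted p = 0.862). Eif1a and Eif1ax encode near-identical proteins, and the Eif1a probe set is of a type that can detect several transcripts, so which copy it measured is uncertain. Eif1a had a value of 0.09. Eif5, the GTPase-activating protein for eIF2, had 5264, 5194 and 5647 in bone marrow and 5509, 5217 and 4924 in fetal liver (-0.04 ± 0.07, adjusted p = 0.692). Another of its probe sets rose from 2341, 2160 and 2278 to 2824, 2888 and 2956 (0.35, adjusted p = 0.0118 over all probe sets), so the probe sets of Eif5 did not give 1 answer.

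Of the tested genes for eIF2 itself and for the tRNA carriers that can act in its place, Eif2s2 passed. It encodes the beta subunit and had 5645, 5245 and 5564 in bone marrow and 6124, 7166 and 6406 in fetal liver (0.26 ± 0.08, adjusted p = 0.0300). Of its 5 other probe sets 3 rose as well, by 0.26, 0.28 and 0.92 on the log2 scale. The call was lost under quantile normalization (adjusted p = 0.0754), with no filter, without the variance trend, with a replicate block (adjusted p = 0.0520), and without any 1 bone marrow array or fetal liver replicate 3. The arrays of Eif2a did not overlap, but its value of 0.17 ± 0.09 did not pass (adjusted p = 0.187). Eif2d had 0.10.

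The 11 tested eIF3 subunit genes had small positive values throughout, from 0.06 (Eif3e) to 0.33 (Eif3l). Of these 11 genes 1 passed, where 17.8% of all genes were called higher. It was Eif3l, a subunit of the structural core, with 3635, 3697 and 3449 in bone marrow and 4145, 5175 and 4301 in fetal liver (0.33 ± 0.10, adjusted p = 0.0243). It lost its call without any 1 of the bone marrow arrays, without the variance trend and when its probe sets were averaged (0.27, adjusted p = 0.0846). Eif3d, which can bind the cap of some messenger RNAs itself, had 0.22 ± 0.08 (adjusted p = 0.0584), and the core subunit gene Eif3c had 0.23 ± 0.09 (adjusted p = 0.0691). For 6 of the 11 genes all fetal liver arrays lay above all bone marrow arrays, which held for 26.7% of all genes. Eif3a, the largest subunit and part of the core, had 6492, 6435 and 6233 against 6941, 7080 and 6963 (0.13 ± 0.06, adjusted p = 0.120), and its arrays separated at a difference of 9.54%. Under quantile normalization the values of Eif3e (-0.03) and Eif3i (-0.02) turned negative, so the direction common to the subunits depends on scaling.

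Fetal liver replicate 2 carried much of the spread. It was the highest fetal liver array for 26 of 40 members (65.0%), against 34.9% of all genes, and for 8 of 11 eIF3 genes. The median member lay 0.34 log2 units above its bone marrow mean on that array, and 0.15 above on both others. For Eif3h the fetal liver signals were 6908, 9312 and 7269, against 6785, 7097 and 6644 in bone marrow. Fetal liver replicate 2 also had the lowest median signal over all probe sets, 52.0 against 59.1 and 56.8 on the others, whose part in the members' high values was not tested. Without it 11 members were called higher, against 14.4% of all genes, and the members' median was 0.14, with 0.04 for all genes. The median SD of a member between replicates was 0.0597 log2 units in bone marrow and 0.111 in fetal liver, against 0.135 and 0.174 over all genes.

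**Figure D2:**
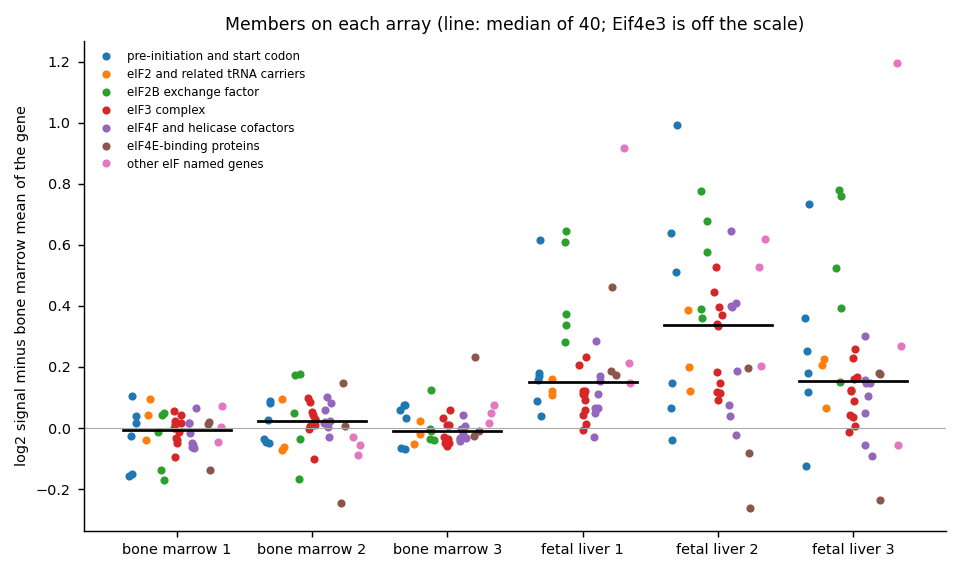
Log2 signal of each member minus its bone marrow mean (vertical axis) on each of the 6 arrays, coloured by role, with a black line for the median of the 40 members. The fetal liver medians are 0.15, 0.34 and 0.15, and Eif4e3 is left off the scale.

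Of the 3 cap-binding protein genes 1 was called lower, 1 was called higher and 1 was not called. Eif4e3, which encodes an atypical cap-binding protein of the eIF4E family, had 533, 628 and 608 in bone marrow and 175, 181 and 156 in fetal liver. It was 3.45-fold lower in the fetal cells (log2 fold change -1.79 ± 0.15, adjusted p = 2.65e-05), and no array came near the other tissue. Its second probe set showed the same, with 221, 177 and 218 against 71.6, 75.6 and 72.3 (-1.48, adjusted p = 5.18e-04 over all probe sets). Of all genes 17.8% were called higher and 18.3% lower. Eif4e3 held its call in each of the 15 alternative settings, between -1.86 and -1.45. Granulocyte, monocyte, lymphoid and mast cell markers were lower in fetal liver as well, and their part in this value was not tested.

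Eif4e2, which encodes the cap-binding repressor also called 4EHP, was higher in fetal liver. Its signals were 4361, 4088 and 4066 in bone marrow and 5080, 6518 and 5133 in fetal liver (0.41 ± 0.10, adjusted p = 0.0132). A second probe set gave 0.49 (adjusted p = 0.00526 over all probe sets), but the mean over its 5 probe sets was 0.10 (adjusted p = 0.630). The other 3 were not called and were dimmer, with -0.18 (signals of 33.5 to 55.9), -0.46 (104 to 198) and 0.23 (313 to 832). The call was also lost without the variance trend and without bone marrow replicate 3. Eif4e, the canonical cap-binding protein and a limiting factor for many growth-related messages, had 3522, 3495 and 3433 against 3919, 3669 and 3742. The arrays did not overlap, but its value of 0.12 ± 0.07 did not pass (adjusted p = 0.235).

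The remaining tested genes of the cap-binding complex were not called, and the scaffold gene Eif4g1 was not among the members. Eif4a1, the main helicase, had 7612, 8098 and 8218 in bone marrow and 8346, 10483 and 8250 in fetal liver (0.17 ± 0.10, adjusted p = 0.196), where 8218 and 8250 are the nearest values of the tissues. Of its other probe sets 1 was called higher (0.40, adjusted p = 0.0187 over all probe sets). Its relative Eif4a2 had -0.03 ± 0.07 and the helicase cofactor gene Eif4b had -0.0045 ± 0.07, while Eif4h had 0.21 ± 0.10 (adjusted p = 0.130). Eif4g2, a scaffold relative that supports cap-independent initiation, had 0.16 ± 0.07 (adjusted p = 0.0839) with separated arrays. Eif4g3, a second eIF4G scaffold, had 0.22 ± 0.10 (adjusted p = 0.111), and -0.0997 when its probe sets were averaged. The other probe sets in that mean had signals of 18.7 to 97.2.

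The 4E-binding proteins sequester eIF4E until mTOR phosphorylates them, and eIF4E transporter, encoded by Eif4enif1, carries eIF4E to the nucleus and to processing bodies. Of these 3 genes limma called 0, where 36.1% of all genes were called. Eif4ebp1 had 2037, 2021 and 1972 in bone marrow and 2269, 2302 and 2278 in fetal liver (0.18 ± 0.08, adjusted p = 0.0969), with separated arrays. Eif4ebp2 had 2874, 2399 and 3338 against 3918, 2369 and 2415, where fetal liver replicate 1 was far above the other fetal liver arrays (-0.01 ± 0.20, adjusted p = 0.966). Eif4enif1 had 0.09 ± 0.12.

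Eif5a2 had the largest rise of the members. It encodes the second isoform of eIF5A, the factor that carries the amino acid hypusine and helps ribosomes through difficult peptide bonds. Signals were 354, 317 and 341 in bone marrow and 636, 517 and 771 in fetal liver, a rise of 1.88-fold (0.91 ± 0.16, adjusted p = 0.00254). The second probe set gave 1.36 (adjusted p = 0.00523 over all probe sets), from 103, 61.4 and 69.6 to 179, 160 and 260. The widely expressed isoform gene Eif5a had 7738, 7818 and 8412 against 8846, 9187 and 7687, with overlapping arrays (0.10 ± 0.08, adjusted p = 0.370).

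Eif6, which keeps the ribosomal subunits apart and acts in their assembly, gave opposite answers from its 2 probe sets. The brighter one rose from 3105, 2983 and 3208 to 3590, 4461 and 3734 (0.34 ± 0.10, adjusted p = 0.0232). The dimmer one fell from 895, 437 and 597 to 398, 298 and 285 (-0.93, adjusted p = 0.0213 over all probe sets). The mean of both was -0.30 (adjusted p = 0.129), so the direction for Eif6 is not settled. The rise was also not called without any 1 bone marrow array or without the variance trend. Eif4a3, a helicase of the exon junction complex, was the 1 member below the filter. Its probe set gave 4.69, 7.97 and 2.80 in bone marrow and 27.9, 6.73 and 19.0 in fetal liver, where 10.6 is the 95th percentile of bacterial control probe sets. A brighter probe set that is also annotated to Gm5576 measured 3398 to 3900 and 3720 to 4911 and was not used to name the gene.

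**Figure D3:**
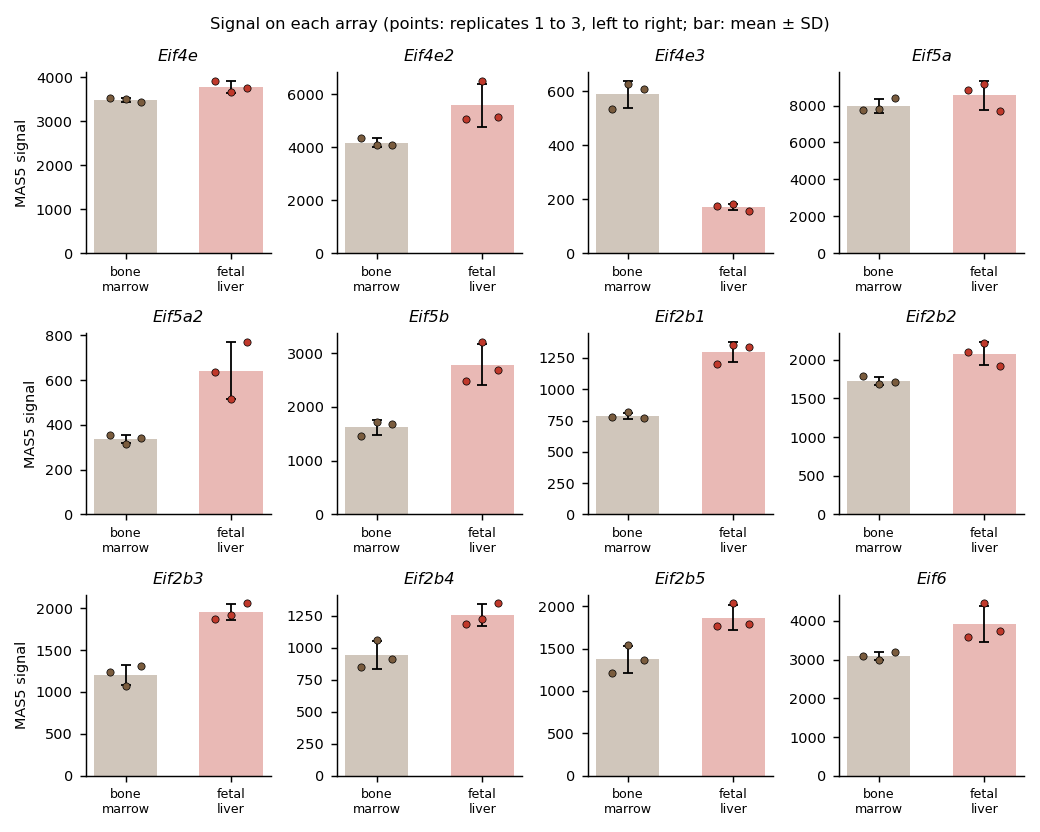
MAS5 signal (vertical axis, from 0) of 12 initiation factor genes in bone marrow and fetal liver, with points for replicates 1 to 3 and bars for the mean ± SD. The groups do not overlap for Eif4e, Eif4e2, Eif4e3, Eif5a2, Eif5b, Eif6 and the 5 eIF2B genes, and they overlap for Eif5a.

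Other probe sets give a partly independent reading of each gene on the same arrays. For 29 members 67 further probe sets passed the filter, and 44 of them had the sign of the brightest one. Among those with a mean signal over 1000 this held for 27 of 35, and among the dimmer ones for 17 of 32. Of the 67, 10 were called higher and 2 lower, where 11.8% and 15% of all probe sets were. The 2 called lower were the second probe sets of Eif4e3 and Eif6. The brightest probe set of 8 tested members, including Eif2b2, Eif3c and Eif5a, is of a type that can detect related transcripts.

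**Figure D4:**
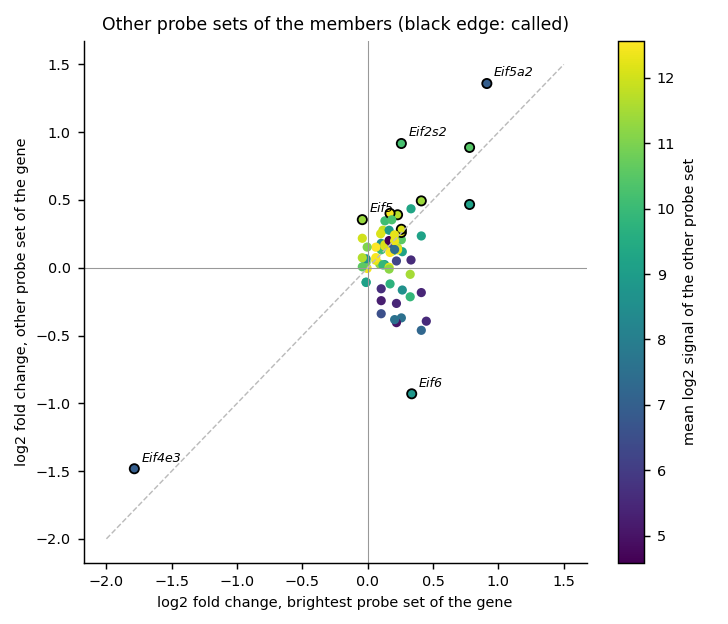
Log2 fold change of the brightest probe set of a gene (horizontal axis) against that of each of its 67 other probe sets (vertical axis), coloured by the other probe set's mean log2 signal, with a black edge for called ones. Eif4e3 (-1.79 and -1.48) and Eif5a2 (0.91 and 1.36) have the same sign on both axes, while Eif6 has a positive value on the horizontal and -0.93 on the vertical axis.

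The size of the common shift depends on scaling. Under quantile normalization 10 members were called higher, against 20.2% of all genes, and the members' median was 0.11 with 0.07 for all genes. Centring each array on its median log2 signal gave 37 members called higher, against 46.2% of all genes, with medians of 0.52 and 0.38. Centring on the median of the tested probe sets gave 29, against 31.3% of all genes, with medians of 0.34 and 0.20. Of the 40 members 35 lay above the median of all genes in the deposited scaling, and 25 under quantile normalization. The members' median lay above that of all genes by 0.14 in the deposited scaling and by 0.03 under quantile normalization. The centrings cannot change this difference, since they shift all genes alike. Over all genes the share of calls that were higher was 49.3% in the deposited scaling, 80.0% and 68.4% under these centrings, and 55.0% under quantile normalization. With replicate number as a block 11 members were called higher, against 15.9% of all genes: Eif2b2 and Eif2s2 lost their calls and Eif1ax gained one. Eif5 and Eif4b, near 0 in the deposited scaling, were called higher when arrays were centred on all probe sets, at 0.30 and 0.33. Eif4e3 was lower and Eif5a2, Eif5b, Eif2b1 and Eif2b3 were higher under each of these scalings.

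**Figure D5:**
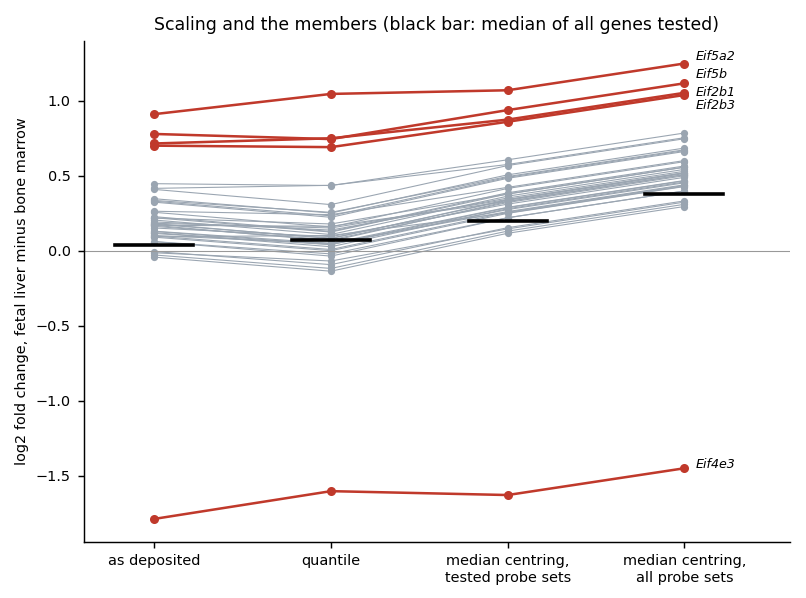
Log2 fold change (vertical axis) of each of the 40 members in the deposited scaling and under 3 other scalings, joined by lines, with black bars for the median of all genes tested. Eif4e3, Eif5a2, Eif5b, Eif2b1 and Eif2b3 are drawn in red. Both centrings add 1 constant to every gene, which keeps the distances between genes of the deposited scaling.

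Genes that act on or beside the initiation factors were counted from 3 lists. In the integrated stress response, in which kinases phosphorylate eIF2 and so inhibit eIF2B, 1 of 15 genes was higher and 3 were lower, against 17.8% and 18.3% of all genes, with a median log2 fold change of -0.08 against 0.04. Ddit3, the stress transcription factor CHOP, measured 2639, 1955 and 2601 in bone marrow and 788, 752 and 504 in fetal liver, 3.55-fold lower (-1.83 ± 0.19, adjusted p = 9.45e-05). Ppp1r15a, the stress-induced phosphatase subunit that removes phosphate from eIF2, had 2700, 2231 and 3102 against 1594, 1242 and 768 (-1.21 ± 0.24, adjusted p = 0.00411). These 2 genes have separated arrays, and they fell together with immediate early genes, of which 10 of 12 were lower. The summed signal of those genes was 48419 to 51000 in bone marrow, and 31021, 20224 and 11824 in fetal liver replicates 1 to 3. Fetal liver replicate 3 was the lowest array for this sum, Ddit3 and Ppp1r15a. The part of this difference in their values was not tested. Chac1, which encodes a glutathione-degrading enzyme, was lower (-0.81, adjusted p = 0.0219). It was not called under quantile normalization (-0.48, adjusted p = 0.138), with arrays centred on all probe sets, or without bone marrow replicate 2 or 3 or fetal liver replicate 3. Asns, the asparagine synthetase gene that the pathway's transcription factor ATF4 can induce, was higher (0.41 ± 0.07, adjusted p = 0.00272). Atf4 itself had -0.08 and was not called, and the 4 eIF2 kinase genes, from Eif2ak3 at -0.36 to Eif2ak1 at 0.29, were not called either; these 5 were named after their values were seen.

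Of 20 initiation cofactor genes 7 were higher and 1 lower, against 17.8% and 18.3% of all genes, with a median of 0.12 against 0.04. Mcts2, a retrogene copy of the re-initiation factor gene Mcts1, had 233, 165 and 194 in bone marrow and 2839, 3793 and 3397 in fetal liver. This was 17.0-fold higher (4.09 ± 0.16, adjusted p = 7.06e-07), while the Mcts1 probe set gave 2465, 2448 and 2524 against 2668, 2410 and 2467 (0.02 ± 0.08, adjusted p = 0.870; named after its value was seen). The copies are similar in sequence, so how far each probe set separates them is uncertain. Denr, the partner of MCTS1 in ribosome recycling and re-initiation, was higher too (0.41 ± 0.09, adjusted p = 0.00743). Mknk1, a kinase of eIF4E, rose from 785, 672 and 767 to 1052, 1276 and 1395 (0.74 ± 0.13, adjusted p = 0.00252), and Dhx29, a helicase for structured leaders, had 0.41 ± 0.10 (adjusted p = 0.0100). Averaging probe sets ended the calls of Mknk1 (0.33, adjusted p = 0.205) and Denr (0.26, adjusted p = 0.0711). The 1 lower gene, Paip2, an inhibitor of the poly(A)-binding protein, had -0.31 (adjusted p = 0.0376); it was named after its value was seen, it had 0.0302 when arrays were centred on all probe sets, and it lost its call when any array but fetal liver replicate 1 was left out.

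Of 17 elongation and release factor genes 6 were higher, against 17.8% of all genes, with a median of 0.22 against 0.04. Eefsec, the elongation factor for selenocysteine, had 803, 733 and 705 in bone marrow and 999, 1162 and 1063 in fetal liver (0.52 ± 0.11, adjusted p = 0.00637). The release factor genes Gspt1 and Etf1 had 0.35 ± 0.08 (adjusted p = 0.00939) and 0.32 ± 0.08 (adjusted p = 0.0103), and the diphthamide enzyme gene Dph5 had 0.36 ± 0.08 (adjusted p = 0.0100). Gspt1 (0.11), Etf1 (0.26) and Dph5 (0.25) lost their calls when probe sets were averaged. Dohh, named after its value was seen because it makes hypusine on the eIF5A proteins, had 403, 486 and 391 against 591, 644 and 636 (0.55 ± 0.13, adjusted p = 0.0115). Dhps, the enzyme of the step before it and named for the same reason, had 0.22 ± 0.08 (adjusted p = 0.0516). Without bone marrow replicate 3 the calls over the 3 lists went from 18 to 9, and those over all genes from 4208 to 2865. Gspt1, Etf1 and Dohh were among the list calls lost.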

How the data were processed

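The deposited values are linear MAS5 intensity signals, 1 per probe set and array, per the submitters' processing notes; no version of MAS5 is given there. The 2%-trimmed mean is 500 on all 6 arrays as deposited. Signals were log2-transformed with no offset, and probe sets above the 40th percentile of mean log2 signal (a signal of 22.9) were kept. Gene names came from the platform annotation. The 41 members all matched a RefSeq gene by Entrez identifier. limma 3.58.1 in R 4.3.3 was fitted to all 11645 genes with tissue as the single term and an intensity-trended prior; Benjamini-Hochberg adjustment ran over all genes, with calls at 0.05. The same fit over 27022 probe sets gave the probe set values. The test was checked on simulated data. The number of arrays limits precision: an exact permutation test of 3 against 3 cannot go below 0.1.

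All arrays are given for called members with a log2 fold change of at least 0.5 in size and for paralogues called in opposite directions. The same holds for genes with probe sets called in opposite directions. Some other members also have all arrays given, not always those with the smallest adjusted p of their role. The rest are given by log2 fold change, range or count. Up to 4 called genes were named per related list. Members and lists were chosen with earlier results of these data known. Same-numbered samples did not deviate together across tissues (r over genes of -0.0814, 0.0706 and -0.109), so no pairing was used. Bacterial control probe sets (27) gave the background level. Promoter windows are RefSeq's, GRCm38.p6. Python 3.11.15 and matplotlib 3.10.9 made the figures.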

Additional observations from a re-analysis of the deposited data

How the results depend on the processing

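There were 15 alternative settings: filters, scalings, an offset of 7.54, the probe set rule, the variance prior, a replicate block and each array left out. Of the 13 called members 5 (Eif4e3, Eif5a2, Eif5b, Eif2b1 and Eif2b3) were called in all of them and 8 lost the call in at least 1. Eif4e3 remained the 1 member called lower in each setting. The count of members called higher, 12 of 40 (against 17.8% of all genes), became 37 under centring on all probe sets (against 46.2%). It became 29 under centring on tested probe sets (added after seeing the data), against 31.3% of all genes. Without the variance trend it was 6 of 40, against 14.6% of all genes. With the mean of probe sets it was 8 of 40, against 17% of all genes. The members' median of 0.18 became 0.52, 0.34, 0.11 (quantile normalization) and 0.12 (mean of probe sets). Centring on all probe sets gave 6725 genes called in place of 4208, and 38 related genes in place of 18. Among genes called on either side of the change, it also turned the sign of Eif5 (0.30), Eif4b (0.33), Paip2 (0.0302) and Paip2b (0.34), and the mean of probe sets turned Eif6 (-0.30). Signs with no call on either side turned in 20 further values of 8 members (Eif2d, Eif3e, Eif3i, Eif4a2, Eif4b, Eif4ebp2, Eif4g3 and Eif5) and in 42 values of 22 related genes. Leaving out 1 array gave 4 to 15 members called higher, against 10.9% to 18.8% of all genes. It gave 9 to 19 related genes called, 2865 to 4436 genes in all and a members' median of 0.14 to 0.21. With replicate number as a block, 11 members were called higher and 1 lower, against 15.9% and 17.1% of all genes. In all 3847 genes were called. Eif2b2 (adjusted p = 0.0736) and Eif2s2 (0.0520) lost their calls, Eif1ax (0.0391) gained one, and no other member's call changed. The causes were not tested. Small rises near 0.2 log2 units have no settled call at 3 arrays per tissue.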
